A study of Homo sapiens with 4 samples.

Results

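Human genes of the YAP and TEAD pathway, 10 of the 36601 human genes counted, were followed in 4 single-cell RNA libraries: the coactivator gene YAP1 and its widely used target genes CCN1, CCN2, THBS1, ANKRD1, AMOTL1, AMOTL2, LATS2, AJUBA and AXL. They were listed by name, and the list was selected on measured values as well as on pathway knowledge, because treatment differences of these same libraries, such as the high CCN2 in agrimoniin and the low THBS1 in erlotinib, were known when it was drawn up. The differences between libraries given here are therefore descriptions and carry no test. The libraries came from tumours of PANC-1, a human pancreatic ductal adenocarcinoma line, grown under the skin of nude mice, which lack mature T cells and keep other host immune cells. There was 1 library for each treatment: combination (agrimoniin with erlotinib), agrimoniin alone, erlotinib alone, and control. Agrimoniin is an ellagitannin, a plant polyphenol of agrimony, and erlotinib inhibits the tyrosine kinase of the epidermal growth factor receptor. The series' design text has the word cyranin where the sample labels have erlotinib, and the labels were followed. Doses, treatment times, the animals' age and the number of tumours behind a library are not given in the sources used here.

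YAP1 is a transcriptional coactivator that does not bind DNA itself. When the Hippo kinases, among them LATS1 and LATS2, phosphorylate it, it is held in the cytoplasm and degraded, and when they are inactive it enters the nucleus and binds TEAD transcription factors, which recognise a short DNA element near their target genes. Its activity therefore depends largely on the protein's location, which RNA counts do not measure. In pancreatic cancer the pathway is known for its activity in tumour cells and in the fibroblasts around them.

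The DNA letters of the TEAD element, GGAATG on either strand, were looked for in the windows from 250 bases before to 50 bases after RefSeq gene starts (GRCh38.p14). Windows were found for 9 of the 10 genes, 12 windows in all, and 8 of these genes had the letters in at least 1 window. Counted by window, 8 of the 12 held them, against 14.04% of 34796 human promoter windows of the same length. AMOTL2, AJUBA and AXL each had a second window without a match. In each of these genes the window without a match was the one at the GENCODE 29 gene start. CCN2 had 3 matches, first bases 169, 104 and 95 before the start, and ANKRD1 had 2. The other 6 genes with a match (AMOTL2, YAP1, LATS2, AJUBA, THBS1 and AXL) had 1 each, and none was found in the window of AMOTL1. The AP-1 element, TGANTCA on either strand, was found in the window of ANKRD1 and in those of no other gene of the list, against 7.73% of all windows. These are matches of letters, not measured binding sites. The stretches around the matches of the genes whose levels differed most between libraries, and of AMOTL2, which varied together with CCN1 and CCN2, are printed with the TEAD letters in capitals, read on the strand of the gene.
CCN2, chr6:131951442-131951561, minus strand: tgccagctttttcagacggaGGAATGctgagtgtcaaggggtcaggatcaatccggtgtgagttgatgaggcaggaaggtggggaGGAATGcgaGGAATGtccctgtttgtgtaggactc
ANKRD1, chr10:90921190-90921327, minus strand: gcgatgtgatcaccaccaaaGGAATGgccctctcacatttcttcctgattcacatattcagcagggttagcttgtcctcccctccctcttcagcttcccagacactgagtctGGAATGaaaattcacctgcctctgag
THBS1, chr15:39581013-39581058, plus strand: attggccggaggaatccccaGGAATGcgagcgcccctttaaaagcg
AMOTL2, chr3:134374491-134374536, minus strand: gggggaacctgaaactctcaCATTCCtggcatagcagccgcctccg
The genes themselves lie, in GENCODE 29 (GRCh38), on chromosomes 1 (CCN1, 85580761 to 85583962), 3 (AMOTL2, 134355874 to 134375479), 6 (CCN2, 131948176 to 131951373), 10 (ANKRD1, 90912096 to 90921276), 11 (AMOTL1, 94706431 to 94876753, and YAP1, 102110461 to 102233423), 13 (LATS2, 20973032 to 21061547), 14 (AJUBA, 22971174 to 22982642), 15 (THBS1, 39581079 to 39599466) and 19 (AXL, 41219203 to 41261766).

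Every barcode held UMIs, that is, single counted RNA molecules, of both species, so the human UMIs of a barcode are called its human part, and a part need not be 1 cell. After filters on counts and mitochondrial share, 1013 human parts remained: 245 in combination, 283 in agrimoniin, 292 in erlotinib and 193 in control, with 2420470 to 3775711 human UMIs per library. No barcode was shared between libraries. Human UMIs made up 77.9% of all UMIs in combination, 73.9% in agrimoniin, 73.8% in erlotinib and 68.5% in control, and median UMIs per human part ran from 11586 to 12653. The human parts carried VIM at 5609 to 6272 counts scaled to 1e+06 UMIs (CPM), KRT8 at 36.0 to 49.2 CPM and KRT18 at 47.1 to 65.4 CPM, while the ductal keratins KRT7 and KRT19 had 0 to 4 UMIs per library. Of 8 human markers of other cell types, PTPRC, DCN, PECAM1 and CDH5 had 0 to 2 UMIs per library, RGS5 and COL1A2 0 to 9, CD68 22 to 29, and COL1A1 stood at 5545 to 6500 CPM. With 1 library per treatment there is no replicate check, each comparison is of 2 libraries, and the intervals given are exact 95% intervals that cover counting error only. In sums over parts, fewer expressing cells and less RNA per cell cannot be told apart.

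YAP1 itself differed little between the libraries. It was at 308 CPM in combination, 306 CPM in agrimoniin, 290 CPM in erlotinib and 276 CPM in control. The ratio to control was 1.12 (1.01 to 1.24) in combination, 1.11 (1.01 to 1.22) in agrimoniin and 1.05 (0.956 to 1.16) in erlotinib. All neighbours in the order combination, agrimoniin, erlotinib, control had ratios whose intervals held 1.

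**Figure D1:**
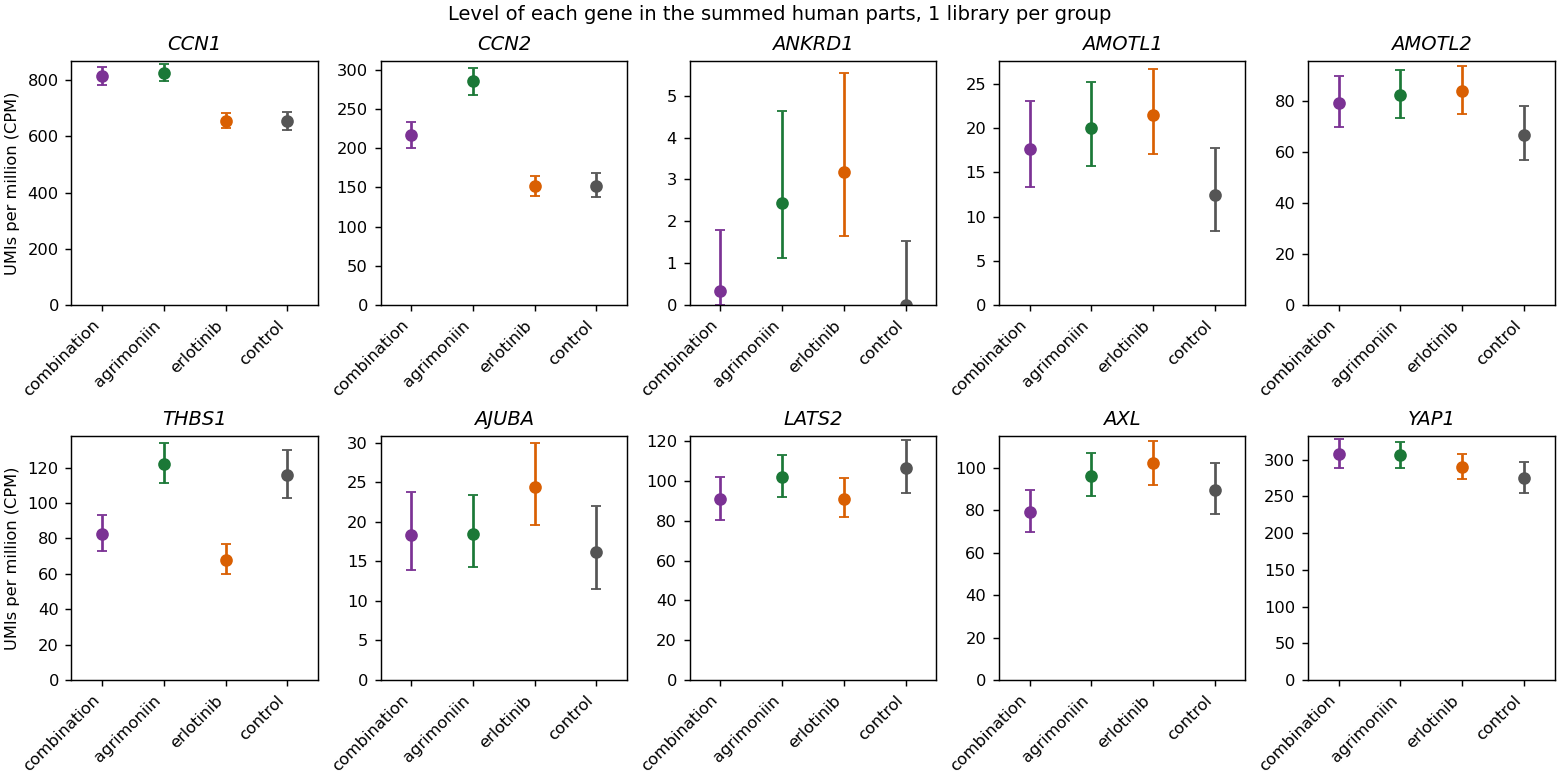
Level of each of the 10 genes in CPM of the summed human parts of the 4 libraries, with exact 95% counting intervals as bars and the vertical axis from 0 in each panel. CCN1 and CCN2 are higher in combination and agrimoniin than in erlotinib and control, THBS1 is lower in combination and erlotinib, and YAP1 lies between 276 and 308 CPM throughout.

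Among the secreted products, CCN2 (connective tissue growth factor, a matricellular protein) differed most against control in agrimoniin, apart from ANKRD1. CCN2 was at 216 CPM in combination, 285 CPM in agrimoniin, 151 CPM in erlotinib and 152 CPM in control, from 673, 1053, 572 and 369 UMIs. Agrimoniin stood highest and combination second, with all intervals between them and the other libraries off 1, and erlotinib and control overlapped. The CCN2 ratio was 1.42 (1.249 to 1.62) for combination over control, 1.87 (1.66 to 2.11) for agrimoniin over control and 0.994 (0.870 to 1.14) for erlotinib over control. The combination library had less CCN2 than the agrimoniin library, with a ratio of 0.759 (0.688 to 0.836), and more than the erlotinib library, with a ratio of 1.43 (1.28 to 1.60). Under the alternative runs the first of these ratios ranged from 0.626 to 1.00 and the second from 1.14 to 1.74.

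CCN1 (CYR61), the related matricellular protein gene that is commonly read beside CCN2, had the same libraries on top with smaller differences. It was at 814 CPM in combination, 826 CPM in agrimoniin, 655 CPM in erlotinib and 655 CPM in control. The libraries fell into 2 pairs: combination over agrimoniin was 0.985 (0.934 to 1.04) and erlotinib over control 1.00 (0.939 to 1.07), with both intervals holding 1. Under the alternative runs combination over agrimoniin ranged from 0.795 to 1.04 and combination over erlotinib from 1.02 to 1.32. The pairing therefore depends on the processing. The CCN1 ratio was 1.26 (1.19 to 1.34) for agrimoniin over control and 1.24 (1.17 to 1.32) for combination over control, just inside and just outside the fold that is counted here as a difference, which is at least 25% above 1, or at most 0.8. With the totals taken without mitochondrial genes the agrimoniin ratio fell just under that fold, and with median-of-ratios size factors it was 1.23, so for CCN1 the count depends on the scaling. No 31-base word is shared by annotated transcripts of any 2 of the 10 genes (45 pairs, GENCODE 29), CCN1 and CCN2 included.

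THBS1 (thrombospondin 1, a secreted glycoprotein that binds CD47 and activates latent TGF-beta) was lower in both libraries with erlotinib. It was at 82.6 CPM in combination, 122 CPM in agrimoniin, 67.8 CPM in erlotinib and 116 CPM in control. Agrimoniin and control overlapped, with a ratio of 1.06 (0.908 to 1.23), and combination lay above erlotinib with a ratio of 1.22 (1.02 to 1.46). Against control the ratio was 0.586 (0.493 to 0.697) in erlotinib and 0.714 (0.601 to 0.849) in combination, and combination over agrimoniin was 0.676 (0.578 to 0.790). A single barcode held 30.7% of the 280 THBS1 UMIs of control and another 13.7% of the 451 of agrimoniin. Without the barcode richest in THBS1 in each library, combination over control was 0.952, erlotinib over control 0.791 and agrimoniin over control 1.31. In parts with at most 10% mitochondrial UMIs, the THBS1 ratio to control was 1.15 in combination, 2.06 in agrimoniin and 0.868 in erlotinib. Among barcodes that were 75% or more human it was 0.546 in combination, 0.853 in agrimoniin and 0.355 in erlotinib.

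ANKRD1, a nuclear ankyrin repeat protein gene often used as a sensitive readout of YAP, was close to undetected. It had 1 UMI in combination, 9 in agrimoniin, 12 in erlotinib and 0 in control, in 1, 4, 5 and 0 parts. The 0 in control allows up to 3 counts, or 1.24 CPM. Set against that floor, ANKRD1 was 1.97-fold higher in agrimoniin and 2.56-fold higher in erlotinib, values that leave out counting error. A single barcode held 44.4% of the 9 UMIs of agrimoniin and another 33.3% of the 12 of erlotinib. With the counting error of the 9 and 12 UMIs included, the lower ends of the exact intervals were 1.29 in agrimoniin and 1.78 in erlotinib. In a split by the mouse part of a barcode, described with the mouse genes, fibroblast-marker-led barcodes held 8 of the 9 and 4 of the 12 UMIs. Mouse Ankrd1 was at 53.0 mouse CPM in these and 3.03 in the other barcodes of agrimoniin, and at 52.5 and 0 in erlotinib. Its part in the human ANKRD1 counts was not tested. No fold is given for combination over control, where both counts lie at or under the floor. Combination over agrimoniin was 0.132 (0.00301 to 0.952), from 1 and 9 UMIs.

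Among the genes for scaffolds and kinases that act on YAP, AMOTL1, AMOTL2 and AJUBA had their largest ratios to control in erlotinib, and LATS2 was not higher in any treated library. AMOTL1, an angiomotin-like scaffold that binds YAP, was at 17.7 CPM in combination, 20.1 CPM in agrimoniin, 21.5 CPM in erlotinib and 12.4 CPM in control, from 30 to 81 UMIs. Control was lowest, and the 3 treated libraries could not be told apart by their intervals. The AMOTL1 ratio to control was 1.43 (0.899 to 2.31) in combination, 1.62 (1.05 to 2.56) in agrimoniin and 1.73 (1.13 to 2.73) in erlotinib. In parts with at most 10% mitochondrial UMIs these ratios were 2.60 in combination, 3.13 in agrimoniin and 3.57 in erlotinib. AMOTL2, the second angiomotin-like gene of the list, was at 79.4 CPM in combination, 82.4 CPM in agrimoniin, 84.2 CPM in erlotinib and 66.9 CPM in control. Its ratio to control was 1.19 (0.970 to 1.46) in combination, 1.23 (1.01 to 1.499) in agrimoniin and 1.26 (1.04 to 1.53) in erlotinib. Under both other scalings the erlotinib value was 1.24, while among barcodes that were 75% or more human the AMOTL2 ratio was 0.865 in combination, 0.936 in agrimoniin and 0.979 in erlotinib, so the direction turned.

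AJUBA, a LIM-domain scaffold that holds back LATS kinases, was at 18.3 CPM in combination, 18.4 CPM in agrimoniin, 24.4 CPM in erlotinib and 16.1 CPM in control, from 39 to 92 UMIs. Erlotinib was highest, with a ratio to control of 1.51 (1.03 to 2.26), and combination over erlotinib was 0.752 (0.531 to 1.06), whose interval held 1. In a split by the mouse part of a barcode, described with the mouse genes, erlotinib over control for AJUBA was 3.47 (1.72 to 7.75) in fibroblast-marker-led barcodes, from 43 and 10 UMIs, and 0.895 (0.554 to 1.47) in the others, so the direction turned. LATS2, the kinase that phosphorylates YAP, was at 90.7 CPM in combination, 102 CPM in agrimoniin, 91.1 CPM in erlotinib and 107 CPM in control. All 6 pairs of libraries had LATS2 ratios whose intervals held 1.

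AXL, the receptor tyrosine kinase for the ligand GAS6, was at 79.1 CPM in combination, 96.2 CPM in agrimoniin, 102 CPM in erlotinib and 89.7 CPM in control. The combination was lowest, with ratios of 0.822 (0.696 to 0.970) to agrimoniin and 0.776 (0.658 to 0.913) to erlotinib, while its ratio to control, 0.882 (0.732 to 1.06), had an interval that held 1. AXL over control was 1.07 (0.904 to 1.28) in agrimoniin and 1.14 (0.961 to 1.35) in erlotinib. Under every alternative run, combination over erlotinib stayed between 0.741 and 0.806.

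**Figure D2:**
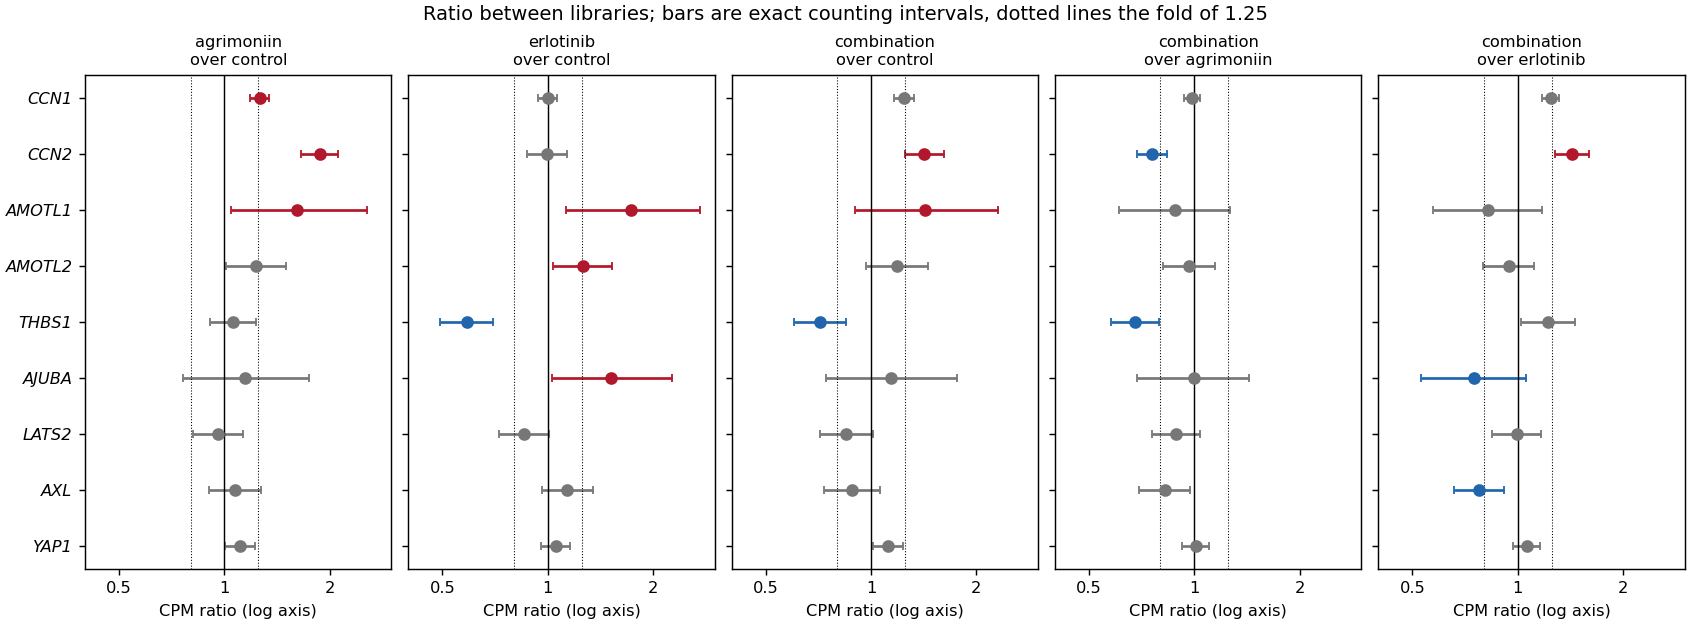
CPM ratio of 9 genes (ANKRD1 left out for its low counts) in the 5 comparisons, each treated library over control and the combination over each single drug, on a log axis with exact 95% counting intervals. Red points are at least 25% above 1, blue points at most 0.8 and grey points between; CCN2 in agrimoniin over control, at 1.87, lies farthest right, and THBS1 in erlotinib over control, at 0.586, farthest left.

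Counted over the list, 4 of the 10 genes were past the fold upwards in agrimoniin over control (CCN1, CCN2, AMOTL1 and ANKRD1) and 0 lower, where 13.6% of the 9282 human genes with a mean of at least 10 CPM were higher and 9.1% lower. In erlotinib over control, 4 genes were higher (AMOTL1, AMOTL2, AJUBA and ANKRD1) and 1 lower (THBS1), against 14.4% and 11.2% of all genes. Combination over control had 2 higher (CCN2 and AMOTL1) and 1 lower (THBS1), against 13.6% and 11.8%. The choice of these genes used these contrasts, so nothing is read from the shares. ANKRD1, at 3.18 CPM or less in every library, was counted among the 10 genes here and between treated libraries. It is not among the 9282 genes, so the counts and the shares rest on unlike filters. The median log2 ratio of the 10 genes, with a pseudocount of 10 CPM that understates changes of low genes, was 0.14 in combination, 0.20 in agrimoniin and 0.12 in erlotinib, where the median of all genes was 0.02, 0.03 and 0.02. The standard deviation of the log2 ratios of all genes was 0.22, 0.21 and 0.23 in the same comparisons, and all 3 share the control library.

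Between treated libraries, 0 genes of the list were higher and 3 lower (CCN2, THBS1 and ANKRD1) in combination over agrimoniin, against 8.26% and 10.6% of all genes. Combination over erlotinib had 1 higher (CCN2) and 3 lower (AJUBA, AXL and ANKRD1), against 9.85% and 10.8%. The median log2 ratio of the 10 genes was -0.14 over agrimoniin and -0.04 over erlotinib, and that of all genes -0.01 in both. The same 4 libraries give the erlotinib ratio with and without agrimoniin. For CCN2, combination over agrimoniin was 0.759 and erlotinib over control 0.994, and the quotient of these ratios was 0.763, with an approximate 95% interval from the 4 counts of 0.649 to 0.898. The quotient was 0.510 (0.295 to 0.879) for AMOTL1, 0.766 (0.595 to 0.987) for AMOTL2 and 0.723 (0.573 to 0.913) for AXL. For CCN1, THBS1, AJUBA, LATS2 and YAP1 its interval held 1.

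The 10 genes were spread very differently over the human parts. Parts were thinned to 5000 UMIs each for this, which left out 1 part of agrimoniin and 1 of erlotinib. CCN1 then had a UMI in 78.0% of parts in combination, 76.2% in agrimoniin, 72.5% in erlotinib and 78.8% in control, and CCN2 in 40.4%, 42.2%, 37.1% and 36.3% in the same order. Unthinned, the shares were 89.0%, 88.7%, 85.3% and 91.2% for CCN1 and 57.6%, 56.9%, 51.0% and 49.7% for CCN2. The CCN2 shares with a UMI overlapped between all libraries, at 36.4% to 48.2% (exact interval) in agrimoniin and 29.5% to 43.5% in control. Parts rich in CCN2 were more common in agrimoniin: 5 or more UMIs of 5000 were found in 4.90% of parts in combination, 11.7% in agrimoniin, 3.78% in erlotinib and 4.66% in control. The mean over parts with a UMI was 2.62 UMIs in combination, 3.41 in agrimoniin, 2.17 in erlotinib and 2.29 in control. No barcode was free of human UMIs, so the share of UMIs that came from free RNA was not measured.

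**Figure D3:**
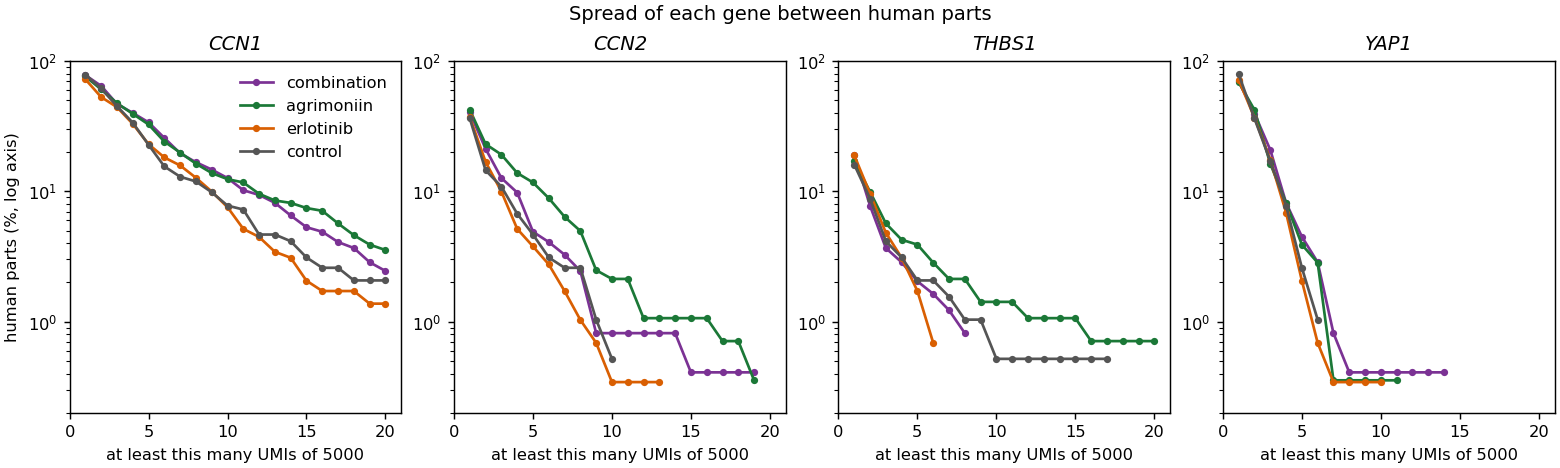
Percentage of human parts (log axis) with at least the given number of UMIs of CCN1, CCN2, THBS1 or YAP1 after thinning to 5000 UMIs, 1 line per library. The agrimoniin line of CCN2 lies above the others at 5 UMIs, where it is at 11.7% against 4.66% in control, and the YAP1 lines fall steeply in all 4 libraries.

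Variance over mean of the thinned counts, which is 1 when parts differ by counting alone, was 4.91 to 6.96 for CCN1, 3.16 to 5.50 for CCN2 and 2.62 to 9.97 for THBS1 across libraries. Over all 9282 genes its median was 1.13 to 1.15 and its 90th percentile 1.58 to 1.69. These genes were not matched by level to CCN1, CCN2 or THBS1, and variance over mean also depends on a gene's level. YAP1 lay at 1.08 to 1.81, LATS2 at 1.21 to 1.38 and AMOTL2 at 1.39 to 1.65. The richest 10% of parts held 76.0% to 88.6% of the THBS1 UMIs, 57.5% to 61.3% of those of CCN2, 39.2% to 41.9% of those of CCN1 and 28.4% to 32.5% of those of YAP1. For the less abundant AMOTL2, AXL and LATS2 the ranges were 52.0% to 61.5%, 48.0% to 57.1% and 42.0% to 49.6%. This share also depends on a gene's level, since few UMIs can lie in few parts only.

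Parts rich in CCN1 tended to be rich in CCN2. Their Spearman correlation between thinned parts was 0.39 in combination (245 parts), 0.49 in agrimoniin (282 parts), 0.34 in erlotinib (291 parts) and 0.26 in control (193 parts). Parts of a library share its preparation, and thinning gives them equal depth. Averaged over the 4 libraries the value was 0.37, and each was the other's closest gene among 3549 genes with a UMI in at least 20% of thinned parts of every library. Library by library, CCN2 ranked 2nd, 1st, 7th and 8th for CCN1 in the order combination, agrimoniin, erlotinib and control. The mean was 0.43 without thinning, 0.30 at 3000 UMIs and 0.37 in barcodes with at least 75% human UMIs.

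AMOTL2 was next to this pair. Its correlation with CCN1 was 0.37 in combination, 0.27 in agrimoniin, 0.28 in erlotinib and 0.15 in control, and that with CCN2 was 0.28, 0.24, 0.28 and 0.08. CCN1 and CCN2 were the closest genes to AMOTL2 on average over the 4 libraries, and CCN1 ranked 1st in each treated library but 134th in control. Averages were 0.20 for CCN1 with THBS1, 0.17 for CCN2 with LATS2 and 0.15 for CCN1 with LATS2. YAP1 had mean correlations near 0 with its targets, 0.01 with CCN1, 0.02 with CCN2 and 0.04 with AMOTL2. Over the 15 pairs of the 6 genes detected in at least 20% of parts, the median was 0.09 in combination, 0.03 in agrimoniin, 0.06 in erlotinib and 0.08 in control. The median of a gene of the list with 3544 other genes was 0.00 in each library. Weak values of this size in sparse counts are no finding.

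**Figure D4:**
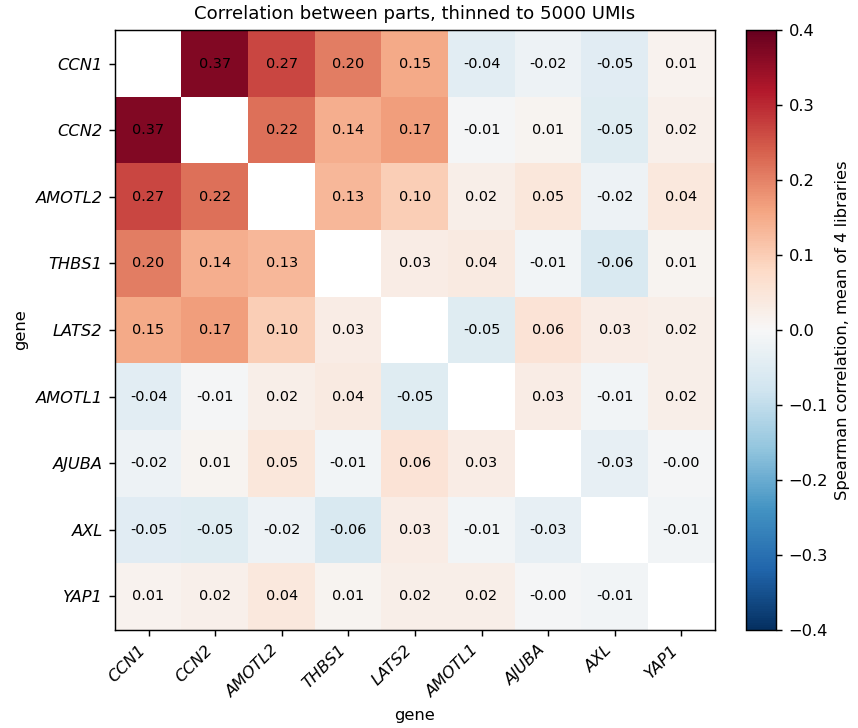
Mean over the 4 libraries of the Spearman correlation between human parts, thinned to 5000 UMIs, for 9 of the genes (ANKRD1 left out). The darkest cell is CCN1 with CCN2 at 0.37, followed by CCN1 with AMOTL2 at 0.27 and CCN2 with AMOTL2 at 0.22, and the rows of YAP1, AJUBA and AMOTL1 are pale.

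Outside the list, the genes closest to CCN1 after CCN2 were FOS (mean correlation 0.33), an AP-1 subunit of the immediate early response, and DUSP1 (0.33), a phosphatase induced in the same response. The summed immediate early genes had a mean correlation of 0.25 with CCN1, from 0.14 to 0.35 over the libraries. With CCN2 it was 0.04 in combination, 0.07 in agrimoniin, 0.07 in erlotinib and -0.28 in control, so control stood apart. After CCN1, CCN2 was closest to RND3 (0.24) and then to AMOTL2. The third gene of AMOTL2 was KLF6 (0.16), a zinc finger transcription factor. AXL was closest to the mitotic genes SPDL1 (0.21), CENPF (0.21) and PRC1 (0.17), and its mean correlation was 0.19 with the summed G2/M genes and 0.18 with the summed S phase genes. CCN1, CCN2 and THBS1 had the opposite sign, with mean correlations of -0.13, -0.16 and -0.16 with the G2/M sum. LATS2 was closest to AFF4 (0.18), HSPH1 (0.17) and TMEM30A (0.17), and YAP1 to AFF4 (0.13), USP12 (0.13) and ANKRD13C (0.13). Values of this size, those of KLF6, PRC1 and the cell cycle sums included, are too weak to separate these genes from others.

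Members of the rest of the pathway lay on both sides of 1. Of 14 upstream Hippo kinases and adaptors, 1 was higher and 2 lower in combination over control, 2 higher and 1 lower in agrimoniin, and 1 higher and 2 lower in erlotinib. Beside the counts of this and the following lists, 13.6% of all genes were higher and 11.8% lower in combination over control. In agrimoniin the shares were 13.6% and 9.1%, and in erlotinib 14.4% and 11.2%. Nothing is read from these counts. STK3 (MST2), the kinase that activates LATS, was lower in every treated library, at 72.0 CPM in combination, 86.4 CPM in agrimoniin and 87.4 CPM in erlotinib, against 122 CPM in control. Its ratio to control was 0.589 (0.493 to 0.703) in combination, 0.707 (0.601 to 0.831) in agrimoniin and 0.715 (0.609 to 0.839) in erlotinib. Its close relative STK4 (MST1) was at 129 CPM in combination, 123 CPM in agrimoniin and 143 CPM in erlotinib, against 124 CPM in control. The kinase TAOK2 was higher in agrimoniin, with a ratio of 1.47 (1.13 to 1.93), and in erlotinib, with 1.35 (1.04 to 1.78). FRMD6, a membrane adaptor of the pathway, was lower in erlotinib, with a ratio to control of 0.740 (0.617 to 0.889), and in combination, with 0.747 (0.618 to 0.904). LATS1 was higher in combination, with a ratio of 1.32 (1.10 to 1.59).

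Among 8 partners of YAP, 4 were higher and 1 lower in combination over control, 2 and 1 in agrimoniin, and 3 and 0 in erlotinib. Fewer had intervals off 1: 2 above and 1 below in combination, 0 and 0 in agrimoniin, and 0 and 1 in erlotinib. TEAD1 lay at 178 CPM in combination, 185 CPM in agrimoniin, 187 CPM in erlotinib and 165 CPM in control. WWTR1, which encodes TAZ, the paralogue of YAP, was at 431 CPM in combination, 388 CPM in agrimoniin, 315 CPM in erlotinib and 381 CPM in control, and combination over erlotinib was 1.37 (1.27 to 1.48). VGLL4, a cofactor that competes with YAP for TEAD, was higher in combination than in control, with a ratio of 1.31 (1.15 to 1.497). TEAD2 was higher in combination than in agrimoniin, with 28.0 CPM against 16.3 CPM and a ratio of 1.72 (1.22 to 2.43).

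Of 16 other described YAP targets, 2 were higher and 2 lower in combination over control, 2 and 3 in agrimoniin, and 2 and 3 in erlotinib. The median log2 ratio was -0.11 in combination, 0.01 in agrimoniin and -0.13 in erlotinib. IGFBP3, whose secreted product binds insulin-like growth factors, was at 164 CPM in combination, 118 CPM in agrimoniin, 108 CPM in erlotinib and 172 CPM in control. Its ratio to control was 0.686 (0.598 to 0.786) in agrimoniin and 0.627 (0.546 to 0.721) in erlotinib, on the other side of 1 from CCN2 in agrimoniin. DOCK5, a Rac exchange factor, was lower in agrimoniin, with a ratio of 0.749 (0.614 to 0.914), and in combination, with 0.705 (0.571 to 0.871). Of 13 receptors and ligands of the listed proteins, 1 was higher and 2 lower in combination, 2 and 1 in agrimoniin, and 1 and 0 in erlotinib. GAS6, the ligand of AXL, had 24 to 46 UMIs per library.

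Pathways that share targets with YAP were counted the same way, beside the same shares of all genes. Of 13 SRF and actin genes, 3 were higher in combination than in control, 7 in agrimoniin and 6 in erlotinib, and 0 were lower in any of these. MYL9, a myosin light chain gene, had ratios to control of 1.49 (1.29 to 1.73) in combination, 1.39 (1.21 to 1.60) in agrimoniin and 1.83 (1.60 to 2.10) in erlotinib. CALD1, for the actin-binding caldesmon, was at 69.5 CPM in combination, 106 CPM in agrimoniin and 108 CPM in erlotinib, against 81.0 CPM in control. Of 12 immediate early genes, 0 were higher and 3 lower in combination, 0 and 2 in agrimoniin, and 0 and 2 in erlotinib. Their intervals lay above 1 for 1 and below 1 for 7 in combination, 0 and 8 in agrimoniin, and 5 and 3 in erlotinib. The median log2 ratio of these genes was -0.12, -0.16 and 0.05 in the same order. ZFP36, an RNA-binding protein gene of this response, had a ratio to control of 0.769 (0.754 to 0.784) in agrimoniin, and IER2 one of 0.775 (0.698 to 0.861) in combination. Among 7 TGF-beta response genes, 1 was higher and 2 lower in combination, 1 and 0 in agrimoniin, and 1 and 3 in erlotinib. SMAD7, the inhibitory SMAD, had a ratio to control of 0.760 (0.634 to 0.910) in combination and 0.690 (0.578 to 0.823) in erlotinib. Cell cycle genes differed beside these counts: 10 of 20 S phase genes were higher in combination than in control, 14 in agrimoniin and 14 in erlotinib, and 4, 8 and 6 of 20 G2/M genes. Of all genes, 13.6%, 13.6% and 14.4% were higher in the same order. Many of the S phase genes had few counts: intervals lay above 1 for 5, 6 and 9 of the 20. For the G2/M genes they did for 4, 9 and 9 of the 20. CDK1, the mitotic kinase, had ratios to control of 1.56 (1.19 to 2.06) in combination, 1.48 (1.13 to 1.95) in agrimoniin and 1.88 (1.46 to 2.45) in erlotinib. With other scalings the agrimoniin counts past the fold were 11 to 14 for S phase and 6 to 8 for G2/M. The part of cell cycle genes in the differences of AXL or of the secreted genes was not tested.

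Mouse reads in the same barcodes gave the host orthologues. Ccn2 was at 1120 mouse CPM in combination, 776 mouse CPM in agrimoniin, 558 mouse CPM in erlotinib and 1383 mouse CPM in control. Thbs1 was at 1761 mouse CPM in combination, 1176 in agrimoniin, 932 in erlotinib and 1811 in control. Ccn1 was at 918 mouse CPM in combination, 915 in agrimoniin, 1112 in erlotinib and 722 in control. Human CCN2 was thus highest and mouse Ccn2 below control in the agrimoniin library, with ratios to control of 1.87 (1.66 to 2.11) and 0.561 (0.519 to 0.607). Summed mouse pericyte markers (3 of 3 genes) were at 875 mouse CPM in combination, 571 in agrimoniin, 345 in erlotinib and 1138 in control, in the same order of libraries as Ccn2 and Thbs1. Of the 3, only Acta2, the most abundant, had this order. Rgs5 was at 165 mouse CPM in combination and 176 in agrimoniin, and Cspg4 at 55.1 and 68.7, with intervals of both ratios holding 1. Summed mouse fibroblast markers (5 of 5) were at 32448, 27767, 33596 and 34429 mouse CPM in that order. Summed mouse macrophage markers (5 of 5) were at 2520 mouse CPM in combination, 2738 in agrimoniin, 3269 in erlotinib and 2125 in control, the reverse of the order of Ccn2 and Thbs1. Of the 5, only C1qa had this reversed order. Adgre1 (81.0 mouse CPM) and Csf1r (142) were lowest in combination, and Cd68 (561) was highest there. C1qb was higher in combination (850) than in agrimoniin (761). The part of these marker genes in the mouse values was not tested.

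Mouse Ccn1 and Ccn2 lay almost entirely in barcodes whose mouse part had more fibroblast than macrophage marker UMIs. In control, Ccn2 was at 2218 mouse CPM in these barcodes and at 27.4 mouse CPM in the others. Human CCN2 was at 224 CPM in these and 210 CPM in the other barcodes of combination, 224 CPM and 328 CPM in agrimoniin, 128 CPM and 167 CPM in erlotinib, and 158 CPM and 146 CPM in control. It was thus lower in the barcodes rich in mouse Ccn2 in agrimoniin and erlotinib, and slightly higher there in combination and control. Across parts, the correlation of human CCN2 with the share of all mouse orthologue UMIs averaged -0.01. The split was made after the data were seen. Agrimoniin over control for human CCN2 was 1.42 (1.18 to 1.70) in fibroblast-marker-led barcodes and 2.24 (1.90 to 2.66) in the others, and combination over control 1.41 (1.18 to 1.70) and 1.44 (1.20 to 1.73). Combination over agrimoniin was 1.00 (0.855 to 1.17) in fibroblast-marker-led barcodes and 0.641 (0.563 to 0.728) in the others. Human THBS1 in combination over control was 1.06 (0.823 to 1.36) in the first set and 0.494 (0.386 to 0.632) in the second.

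**Figure D5:**
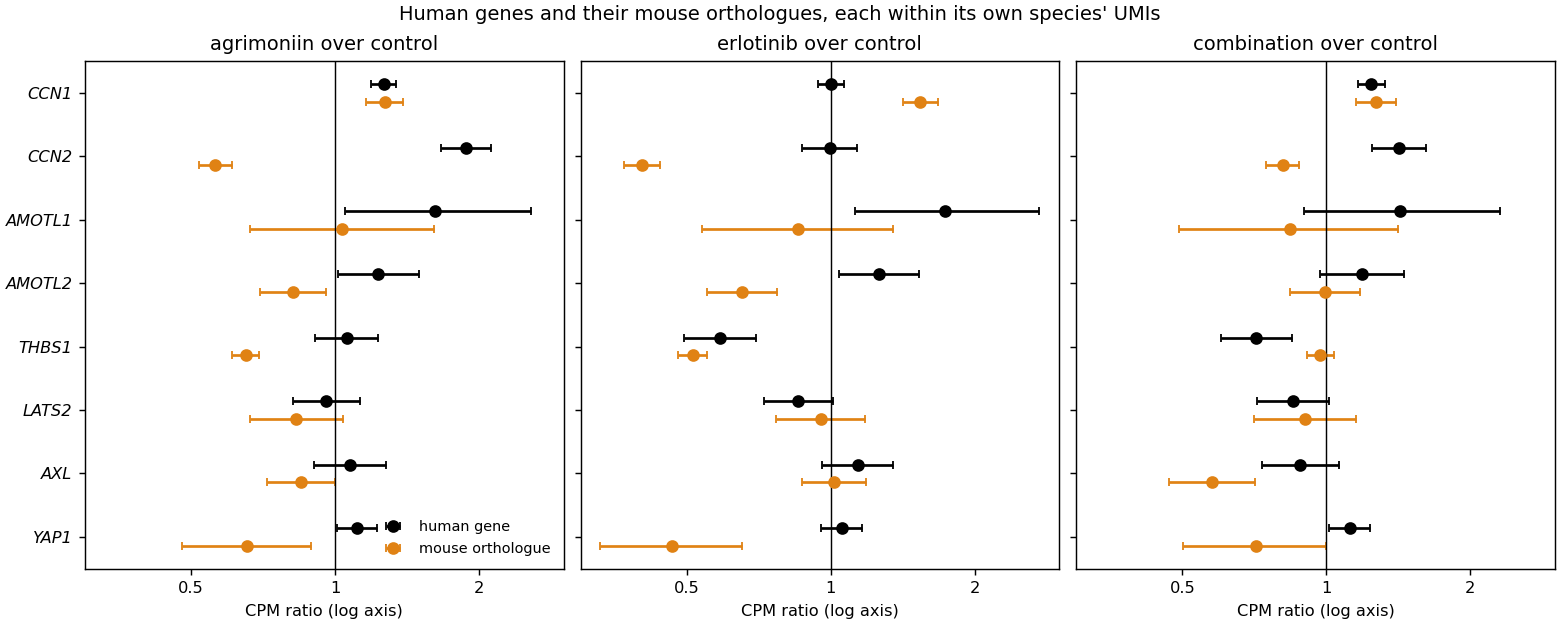
CPM ratio to control of 8 human genes (black) and their mouse orthologues (orange) in agrimoniin, erlotinib and combination, each within the UMIs of its own species, on a log axis with exact 95% counting intervals. In agrimoniin the human and mouse CCN2 points lie on opposite sides of 1, at 1.87 and 0.561, whereas both THBS1 points lie below 1 in erlotinib, at 0.586 and 0.514.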

How the data were processed

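Cell Ranger and the genome builds hg38 and mm10 are named in the submitters' processing notes, with the version not given in the sources used here. What the authors deposited is a raw UMI count for each of 36601 human and 32285 mouse genes in every barcode. Per the labels, a droplet 3 prime kit was used, but the deposited barcodes had a length other than that kit's, so the platform is in doubt. How barcodes were called was likewise not given in those sources. Human parts were kept from 500 UMIs and 250 genes upwards, up to a mitochondrial share of 25%, and summed per library and scaled to 1e+06 (CPM). Doublets were not called, because all barcodes held both species. Ratio intervals are exact and conditional on the sum of both counts; the interval of a quotient of 2 ratios is a normal approximation on the log scale. Intervals cover counting error only. A ratio at least 25% above 1 or at most 0.8 was counted as a difference; background shares used genes of mean CPM of at least 10. Spearman correlations used parts thinned to 5000 UMIs. All 10 members were named. Examples from the other lists came from the up to 3 genes per list and comparison with the largest changes among those past the fold with a mean CPM of at least 20; STK4, TEAD1 and GAS6 were added after their values were seen. For correlations, the 3 closest genes were named. The members and lists were chosen with earlier results of these data known. Scripts used Python 3.11.15, numpy 2.4.6, scipy 1.17.1 and pandas 2.3.3, and were tested on simulated data. Promoter windows are from RefSeq (GRCh38.p14).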

Additional observations from a re-analysis of the deposited data

Results flagged for a closer look

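In 9 cases, each a gene in 1 of 5 comparisons that share libraries, human and mouse ratios lay on opposite sides of 1. Both exact intervals were off 1 in these cases, which came from CCN1, CCN2, AMOTL2, THBS1 and YAP1 only. In agrimoniin over control, the human and mouse ratios were 1.87 and 0.561 for CCN2, 1.23 and 0.817 for AMOTL2, and 1.11 and 0.653 for YAP1. In erlotinib over control they were 1.26 and 0.651 for AMOTL2. In combination over control they were 1.42 and 0.810 for CCN2, and 1.12 and 0.712 for YAP1. In combination over agrimoniin they were 0.759 and 1.44 for CCN2, and 0.676 and 1.497 for THBS1. In combination over erlotinib they were 1.24 and 0.826 for CCN1. Other cases lay on the same side of 1 with both intervals off 1. Over control these were CCN1 in agrimoniin (1.26 and 1.27) and combination (1.24 and 1.27), and THBS1 in erlotinib (0.586 and 0.514). In combination over erlotinib they were CCN2 (1.43 and 2.01), THBS1 (1.22 and 1.89) and AXL (0.776 and 0.569). In combination over agrimoniin it was AXL (0.822 and 0.681). The difference between the species was not tested, since each treatment had 1 library. The summed mouse pericyte markers were at 875 mouse CPM in combination, 571 in agrimoniin, 345 in erlotinib and 1138 in control, and their part in the mouse ratios was not tested. Of these markers, only Acta2, the most abundant, had this order of libraries. Within fibroblast-marker-led barcodes the mouse Ccn2 ratio was 0.680 (0.628 to 0.736) in agrimoniin over control and 1.36 (1.24 to 1.48) in combination over agrimoniin. Not all 9 cases held in these barcodes. Human CCN2 was at 224 CPM there in both combination and agrimoniin. Human THBS1 was at 102 CPM in combination and 99.2 CPM in agrimoniin, on the same side as mouse Thbs1. Mouse Amotl2 was at 440 mouse CPM in agrimoniin and 442 in control. By CPM the remaining cases stayed on opposite sides of 1, with mouse Yap1 at 54 UMIs in combination and 100 in control.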

How the results depend on the processing

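No paired analysis was possible because each treatment had 1 library and no replicate numbers. Counts of the 10 genes past the fold are given as higher or lower. With at least 75% human UMIs per barcode, agrimoniin over control had 2 higher and 1 lower, erlotinib over control 1 and 2, and combination over control 2 lower, and AMOTL2 in erlotinib over control turned to 0.979. With at most 10% mitochondrial UMIs, 0 were lower in erlotinib over control, 5 lower in combination over agrimoniin and 2 higher in combination over erlotinib, and THBS1 in combination over control turned to 1.15. With no filter, 3 were higher in combination over erlotinib. Without each gene's richest barcode, 0 were lower in combination over control. With means of per-part CPM, combination over control had 4 higher and 0 lower, and combination over erlotinib 2 higher. At a fold of 1.5, combination over control had 0 and 0, combination over agrimoniin 1 lower, and combination over erlotinib 0 higher and 1 lower. In fibroblast-marker-led barcodes, a split added after the data were seen, erlotinib over control had 2 higher, combination over control 4 higher and combination over erlotinib 2 higher; THBS1 turned to 1.06 in combination over control and 1.03 in combination over agrimoniin. In the other barcodes, 1 was lower in agrimoniin over control, 2 in erlotinib over control and 2 in combination over control, 2 were higher in combination over erlotinib, and AJUBA in erlotinib over control turned to 0.895. The cause was not tested. CCN2 in agrimoniin over control stayed between 1.42 and 2.30 under every alternative run.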
